A study of Rattus norvegicus with 24 samples.

Results

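Genes of the ADAMTS family and of the ADAMTS-like family were followed in the kidneys of rats with lithium nephropathy. The set was the 10 symbols Adamts1, Adamts2, Adamts4, Adamts5, Adamts9, Adamts10, Adamts15, Adamtsl2, Adamtsl3 and Adamtsl4. Of these 10, 9 had a transcript cluster among the 28894 clusters of the array, and each had only 1. Of these 9, 8 were named by the platform annotation. Adamtsl2 was named only by the study's list of genes with a p under 0.05 in cortex of these same rats. Its cortex results below are therefore a description and not separate support. No cluster was named for Adamts10, so it has no values here. The platform annotation together with that list named 14325 genes in all.

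The samples were 24 arrays of total RNA from renal medulla and renal cortex of 12 male Wistar rats, and each rat gave 1 array per tissue. The 6 lithium-treated rats ate food with 40 mmol lithium per kg for 7 days and with 60 mmol per kg after that, over 6 months in all, and had a salt block. The 6 control rats ate standard rodent food over the same 6 months. The 4 groups of 6 arrays were therefore lithium medulla, control medulla, lithium cortex and control cortex. Each array came from a portion of a frozen kidney, and so from a mixture of cell types. In such samples fewer cells of a type and less RNA per cell cannot be told apart. The values are log2 signals, so a difference of signals is a log2 fold change, and the levels of different genes cannot be set against each other because each gene has its own probes.

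ADAMTS proteins are secreted zinc proteases that cut matrix proteins outside the cell. The best known substrates are the large proteoglycans versican and aggrecan, which Adamts1, Adamts4, Adamts5, Adamts9 and Adamts15 cleave, and the procollagens, which lose their amino-terminal propeptide to Adamts2. ADAMTS-like proteins have the binding modules of the family but no protease domain, and several bind fibrillin microfibrils, the scaffold that stores latent TGF-beta. Mice without Adamts1 have malformed kidneys and urinary tracts. The question put to these data was which of these genes differed between lithium-treated and control rats in each tissue.

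A promoter window, the 250 bases before the gene's start in the RefSeq annotation of the GRCr8 build, was available for 8 of the 10 genes. The windows of Adamts1 and Adamtsl2 are shown because Adamts1 had the largest difference of the family in medulla and Adamtsl2 its only difference without overlap in cortex. The Adamts1 window is chr11:38427385-38427634 on the minus strand and the Adamtsl2 window is chr3:30802450-30802699 on the plus strand. Capitals mark a GC box (GGGCGG) or a TATA sequence (TATAAA), searched on both strands without overlap between the 2 motifs in these windows.
Adamts1: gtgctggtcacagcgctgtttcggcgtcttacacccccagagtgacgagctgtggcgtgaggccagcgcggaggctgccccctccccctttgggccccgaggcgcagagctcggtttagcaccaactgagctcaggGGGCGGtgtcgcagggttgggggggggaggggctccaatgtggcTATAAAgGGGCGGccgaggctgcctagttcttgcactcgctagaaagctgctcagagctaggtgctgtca
Adamtsl2: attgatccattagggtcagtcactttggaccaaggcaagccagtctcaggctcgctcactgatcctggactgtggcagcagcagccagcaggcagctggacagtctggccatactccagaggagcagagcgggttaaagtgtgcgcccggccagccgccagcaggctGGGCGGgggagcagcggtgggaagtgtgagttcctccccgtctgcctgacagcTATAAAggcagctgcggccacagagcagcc
The Adamts1 window held 2 GC boxes and 1 TATA sequence, and the Adamtsl2 window held 1 of each. A GC box was present in 7 of the 8 windows and in 32.4% of the 27457 windows of all genes. A TATA sequence was present in 3 of the 8 windows (Adamts1, Adamts10 and Adamtsl2) and in 13.1% of all. The letters TGANTCA, an AP-1 motif, were in none of the 8 windows and in 6.36% of all. The windows were 51.2% GC in Adamts4, which held none of these motifs, and between 62.4% and 79.2% GC in the other 7. In the order of RefSeq genes, Adamts1 and Adamts5 were neighbours on chromosome 11 with 0 genes between them.

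The array medians lay between 6.12 and 6.22 in medulla and between 5.75 and 5.83 in cortex. Scan date had been removed from the values by the authors, and the groups of arrays that share a scan were recovered from the directions without residual variance. They are called scan groups here. In medulla there were 3, each with 2 lithium-treated and 2 control rats. In cortex there were 4, because lithium-treated rat 17 stood alone. Its cortex array equalled the mean of the other 5 lithium cortex arrays (largest difference 8e-05), so it carried no information of its own and n = 5 in that group. A cluster was tested in a tissue where its signal reached 6 on 4 or more of the 12 arrays. This kept 8 of the 9 genes in medulla (not Adamtsl3) and 6 in cortex (not Adamts4, Adamts15 and Adamtsl3), of 16025 clusters in medulla and 13766 in cortex. The tissue labels were borne out by 6 of 6 proximal tubule markers, which were lower in control medulla than in control cortex.

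**Figure D1:**
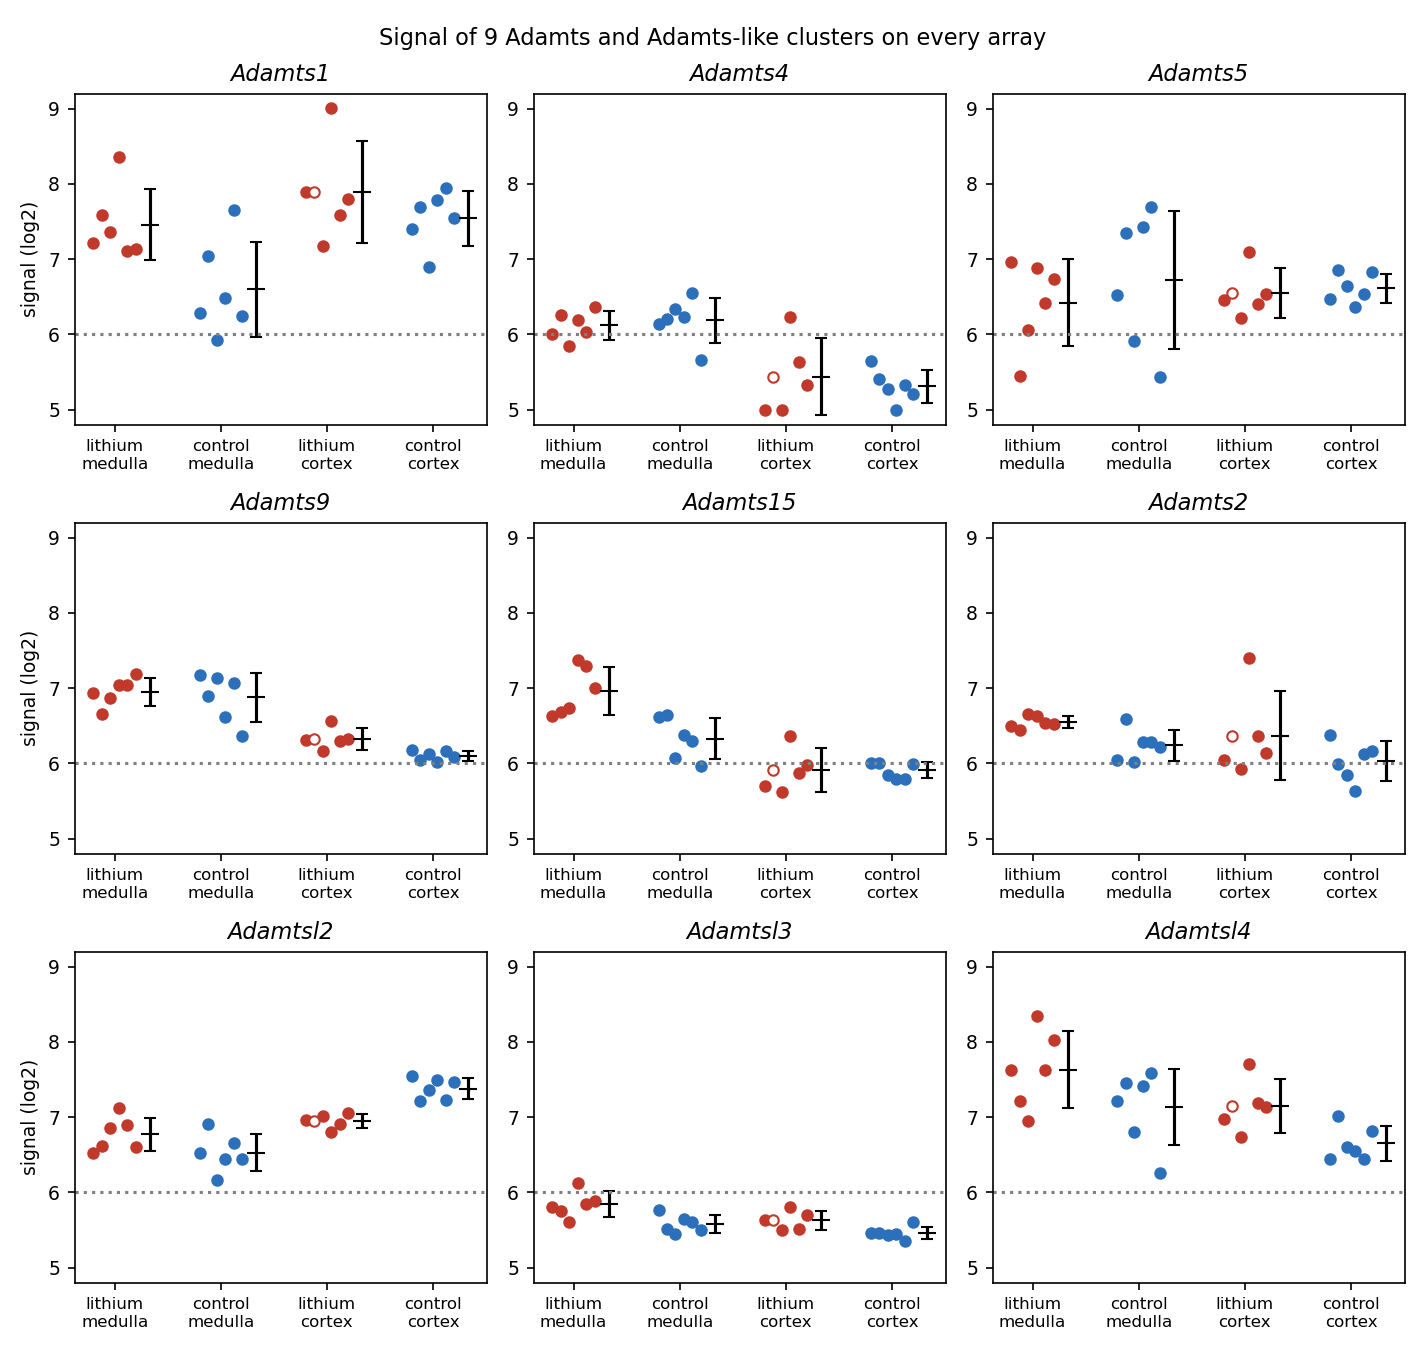
Log2 signal of each gene on every array (points), with the mean and SD at the right of each group; lithium-treated rats are red and control rats blue. The open point is the lithium cortex array that equals the mean of the others, and the dotted line is the filter at 6; in cortex the Adamtsl2 points of the lithium-treated rats all lie under those of the control rats.

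In medulla, none of the 8 genes tested passed an adjusted p of 0.05 in the limma fit with diet and scan group, where 1.19% of all clusters did (190 of 16025). Of those 190 clusters 133 were higher and 57 lower in lithium medulla. After the median of every array was subtracted, a separate fit called 197 clusters, 101 higher and 96 lower, and the family stayed at 0 calls. At an unadjusted p under 0.05, 3 of the 8 were higher in lithium-treated rats (Adamts15, Adamts1 and Adamts2) and none was lower, against 9.09% of all clusters higher and 10.5% lower. The family was chosen with earlier results of these data known. The study also lists these 3 genes with a p under 0.05 in medulla of the same rats, so the counts of the family are a description. An ordinary analysis of variance with diet and scan group gave 0 calls in the family after adjustment. In the limma fit without scan group 1 of the 8, Adamts15, was called, against 6.56% of all clusters. That fit counts more residual degrees of freedom (10) than the values hold after the removal of scan date (8). The median log2 fold change was 0.27 over the 8 genes and -0.01 over all clusters, and 6 of the 8 were above 0, against 48.4% of all clusters. For no gene were the lithium and control arrays of medulla without overlap, which held for 3.71% of all clusters.

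Among the proteoglycan-cleaving proteases in medulla, Adamts1 and Adamts15 had the largest differences between the diets. Adamts15, an aggrecanase and versicanase, had signals of 6.63, 6.87 and 7.38 in lithium medulla (lowest, median and highest of 6) and 5.97, 6.34 and 6.64 in control medulla. The signal was above the highest control array in 5 of 6 lithium-treated rats, and the remaining one, rat 6, lay within the control range. Its mean was 6.96 ± 0.32 in lithium medulla and 6.33 ± 0.27 in control medulla (SD, n = 6 each), a log2 fold change of 0.63 (SE 0.175, 95% interval 0.25 to 1.01, adjusted p 0.0985). Without scan group the adjusted p was 0.0373. The difference within scan groups was 0.03 in rats 1, 6, 13 and 17, 0.84 in rats 15, 16, 18 and 19 and 1.02 in rats 21, 22, 29 and 30. It was thus nearly absent in the first of the 3 scan groups. Leaving out lithium-treated rat 6, the one within the control range, gave 0.71 at an adjusted p of 0.0438. That fit called 1053 of the 16025 clusters, against 190 with all rats, so calls rose among all clusters.

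Adamts1, which cleaves versican and aggrecan, had the largest log2 fold change of the family in medulla, 0.86 (SE 0.307, 95% interval 0.19 to 1.53, adjusted p 0.159). Its signals were 7.11, 7.29 and 8.36 in lithium medulla and 5.93, 6.38 and 7.65 in control medulla (lowest, median and highest of 6). All 6 lithium arrays lay above the control mean, but only rat 19 lay above the highest control array, which was rat 29. The mean was 7.46 ± 0.47 in lithium medulla and 6.60 ± 0.63 in control medulla (SD, n = 6 each), a 1.81-fold difference. The difference within scan groups ran from 0.18 to 1.65 and was positive in all 3. Without control rat 29 the log2 fold change was 1.12 (adjusted p 0.049), and without lithium-treated rat 19 it was 0.63 (adjusted p 0.289).

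The other proteoglycan-cleaving proteases did not separate the diets in medulla. Adamts5, the main aggrecanase of mouse cartilage, had signals of 5.45, 6.58 and 6.96 in lithium medulla and 5.44, 6.94 and 7.69 in control medulla. Its arrays were scattered widely within both diets, and the log2 fold change of -0.31 had an interval from -1.22 to 0.61 (adjusted p 0.712). Adamts4, also an aggrecanase, had signals of 5.85, 6.11 and 6.37 in lithium medulla and 5.66, 6.22 and 6.55 in control medulla (log2 fold change -0.07, interval -0.40 to 0.26). Adamts9, which cleaves versican, had signals of 6.66, 6.98 and 7.19 in lithium medulla and 6.37, 6.98 and 7.18 in control medulla (log2 fold change 0.08, interval -0.27 to 0.42). The lithium range of Adamts4 lay inside its control range, and for Adamts9 both diets had the same median.

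Adamts2, the procollagen N-proteinase, had the smallest spread among lithium medulla arrays, with signals of 6.44, 6.53 and 6.65, against 6.02, 6.25 and 6.59 in control medulla. All 6 lithium arrays were above the control mean and 2 were above the highest control array, rat 13. The mean was 6.55 ± 0.08 in lithium medulla and 6.24 ± 0.21 in control medulla (SD, n = 6 each), a log2 fold change of 0.31 (SE 0.109, adjusted p 0.157). The difference was positive in all 3 scan groups, between 0.16 and 0.49.

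Of the ADAMTS-like genes in medulla, Adamtsl4, which binds fibrillin-1 and is mutated in human ectopia lentis, had signals of 6.95, 7.63 and 8.34 in lithium medulla and 6.26, 7.32 and 7.59 in control medulla. Lithium arrays were above the highest control array in 4 of 6 rats. The log2 fold change was 0.50 (SE 0.281, interval -0.11 to 1.12, adjusted p 0.341). It was 0.29 without control rat 30 (adjusted p 0.518) and 0.67 without lithium-treated rat 18 (adjusted p 0.25). Adamtsl2, which binds fibrillin-1 and latent TGF-beta binding protein and is mutated in human geleophysic dysplasia, had signals of 6.53, 6.74 and 7.12 in lithium medulla and 6.16, 6.49 and 6.91 in control medulla (log2 fold change 0.24, SE 0.145, adjusted p 0.377). Its difference changed sign between scan groups, with a range of -0.15 to 0.68. Adamtsl3 did not pass the filter in either tissue, with 1 medulla array and 0 cortex arrays at 6 or more. Its signals were 5.61, 5.83 and 6.13 in lithium medulla and 5.45, 5.56 and 5.76 in control medulla, and 4 of 6 lithium arrays lay above all control arrays. The exact permutation test of its medulla means gave p = 0.0152 (2-sided, 924 splits).

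**Figure D2:**
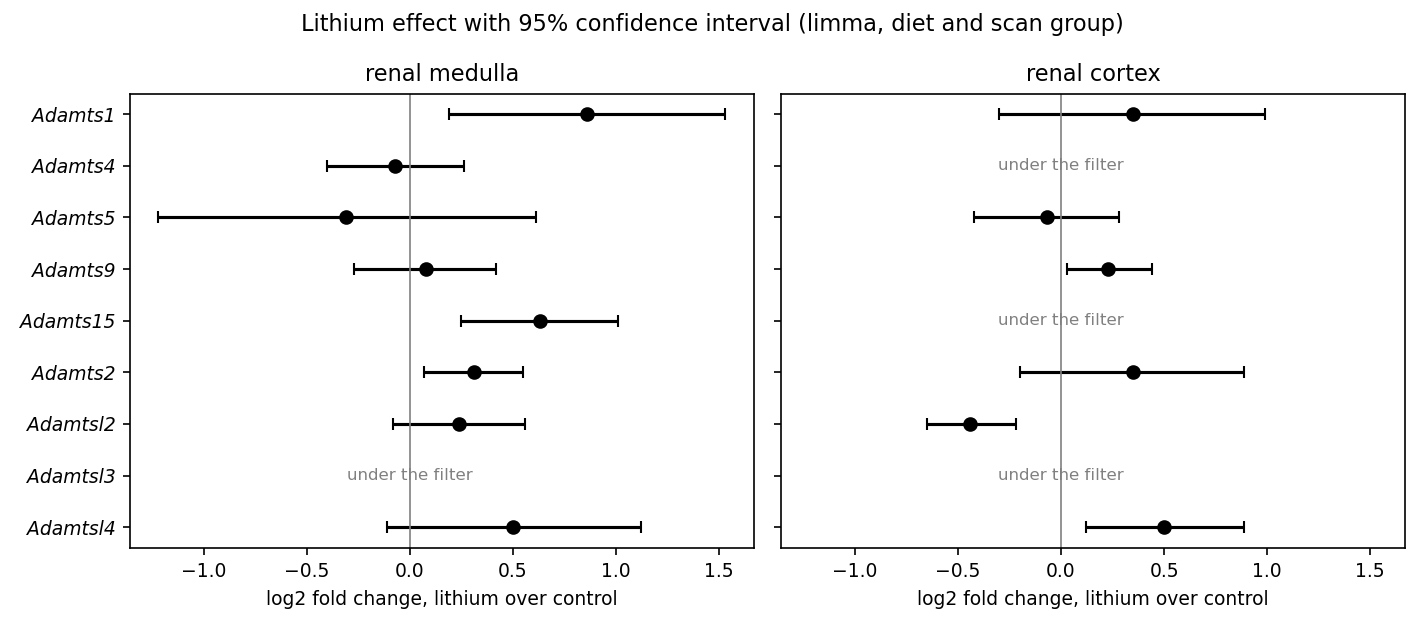
Log2 fold change of lithium over control with its 95% confidence interval for each gene in medulla and cortex, from the limma fit with diet and scan group; genes under the filter have no point. In medulla the intervals of Adamts1, Adamts15 and Adamts2 lie above 0, and in cortex that of Adamtsl2 lies below 0 and those of Adamts9 and Adamtsl4 above it, all before adjustment over clusters.

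In cortex, none of the 6 genes tested passed an adjusted p of 0.05 in the limma fit with diet and scan group, against 0.574% of all clusters (79 of 13766). At an unadjusted p under 0.05, Adamts9 and Adamtsl4 were higher in lithium-treated rats and Adamtsl2 was lower. Those are 2 higher and 1 lower of 6, against 4.91% of all clusters higher and 2.63% lower. The 1 lower is Adamtsl2, which was among the 6 only because the study had listed it as different in cortex. The 2 higher are on the same list of the study, and the family was chosen with earlier results known. These counts are therefore a description. Without lithium-treated rat 19, control rat 16 or control rat 30 only 1 was higher, because Adamts9 no longer passed. In the limma fit without scan group 1 of the 6 was called, Adamtsl2, against 2.09% of all clusters, and an ordinary test without scan group called the same gene. Both of these fits count the array of rat 17 as a sixth lithium array, with 10 residual degrees of freedom against 7 with scan group. An ordinary analysis of variance with diet and scan group called 0 of the 6. The 2 diets did not overlap in 2.57% of all clusters. The median log2 fold change was 0.29 over the 6 genes and 0.01 over all clusters, and 4 of 6 were above 0, against 52.9% of all clusters. Without lithium-treated rat 19 the median was 0.04 over the 6 genes and 0.03 over all clusters.

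Adamtsl2 was the only gene of the family in either tissue whose lithium and control arrays did not overlap. Its cluster was known only from the study's list of cortex differences, so its values here are a description. Its signals in lithium cortex were 6.96 in rat 6, 7.01 in rat 18, 6.80 in rat 19, 6.91 in rat 21 and 7.05 in rat 22, and in control cortex 7.21, 7.41 and 7.54 (lowest, median and highest of 6). Such a separation with lithium lower was seen in 0.719% of clusters in cortex (99 of 13766). The mean was 6.95 ± 0.10 in lithium cortex (SD, n = 5) and 7.38 ± 0.14 in control cortex (SD, n = 6). The log2 fold change was -0.44 (SE 0.0974, 95% interval -0.65 to -0.22), with an adjusted p of 0.104 with scan group and 0.00489 in the limma fit without it. The difference was -0.42, -0.52 and -0.37 in the 3 scan groups that held both diets. Leaving out each rat in turn moved it only between -0.48 and -0.39. The exact permutation test gave p = 0.00216, the smallest it can give with 5 and 6 arrays, and p = 0.0185 over the 108 exchanges within scan groups.

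Adamtsl4 was higher in lithium cortex before adjustment, with signals of 6.97, 6.73, 7.71, 7.19 and 7.14 in rats 6, 18, 19, 21 and 22, against 6.44, 6.57 and 7.02 in control cortex. Of the 5 lithium arrays, 3 were above the highest control array. The log2 fold change was 0.50 (SE 0.176, interval 0.12 to 0.89, adjusted p 0.493), and it was positive in each of the 3 scan groups, between 0.23 and 0.65. Adamts9 had signals of 6.31, 6.16, 6.57, 6.30 and 6.33 in the same lithium rats, against 6.02, 6.10 and 6.18 in control cortex. Of these, 4 were above the highest control array and the fifth, rat 18, was inside the control range. The log2 fold change of Adamts9 was 0.23 (SE 0.0924, interval 0.03 to 0.44, adjusted p 0.574), between 0.20 and 0.30 within scan groups.

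The other proteases had overlapping cortex arrays. Adamts1 had signals of 7.89, 7.18, 9.01, 7.58 and 7.80 in lithium rats 6, 18, 19, 21 and 22, against 6.90, 7.62 and 7.94 in control cortex. Only rat 19 exceeded the control range. Adamts2 had the same pattern, with 6.05, 5.92, 7.40, 6.36 and 6.14 in the same lithium rats and 5.64, 6.06 and 6.38 in control cortex. Both log2 fold changes were 0.35, with an adjusted p of 0.828 for Adamts1 and 0.798 for Adamts2. Adamts5 gave -0.07 (SE 0.160, adjusted p 0.944). Adamts4, with 1 cortex array at 6 or more, averaged 5.44 ± 0.51 in lithium cortex and 5.31 ± 0.22 in control cortex (SD, n = 5 and 6). Adamts15, with 3 such arrays, averaged 5.91 ± 0.29 in lithium cortex and 5.91 ± 0.11 in control cortex (SD, n = 5 and 6). Adamtsl3 averaged 5.63 ± 0.13 in lithium cortex and 5.46 ± 0.08 in control cortex (SD, n = 5 and 6), and its exact permutation p was 0.0303. Neither Adamts4 nor Adamts15 differed in cortex beyond the spread of the arrays.

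The cortex array of lithium-treated rat 19 stood apart, as was seen after its values were examined. Among the 5 lithium cortex arrays with their own values it was the highest for 8 of the 9 genes and the lowest for the ninth, Adamtsl2. It lay 1.46 above the control mean for Adamts1, 1.37 for Adamts2, 1.06 for Adamtsl4 and 0.92 for Adamts4, and -0.58 from it for Adamtsl2. The lithium cortex array of rat 18 was the lowest for 8 of the 9. The mean of 7 fibroblast markers was 8.82 in rat 19, against 6.80 to 7.38 in the other lithium cortex arrays of their own and 6.65 to 7.45 in control cortex. The mean of 4 smooth muscle markers was 8.43 in rat 19, against 5.92 to 6.65 in those lithium arrays and 5.81 to 6.55 in control cortex. Their part in these results was not tested. Without rat 19 the cortex log2 fold change was 0.03 for Adamts1, 0.05 for Adamts2, 0.34 for Adamtsl4, 0.17 for Adamts9 and -0.39 for Adamtsl2. The differences of Adamts1 and Adamts2 in cortex therefore rested on that array, and that of Adamtsl2 was nearly as large without it. In medulla the array of rat 19 was the highest of 6 for 5 of the 9 genes.

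**Figure D3:**
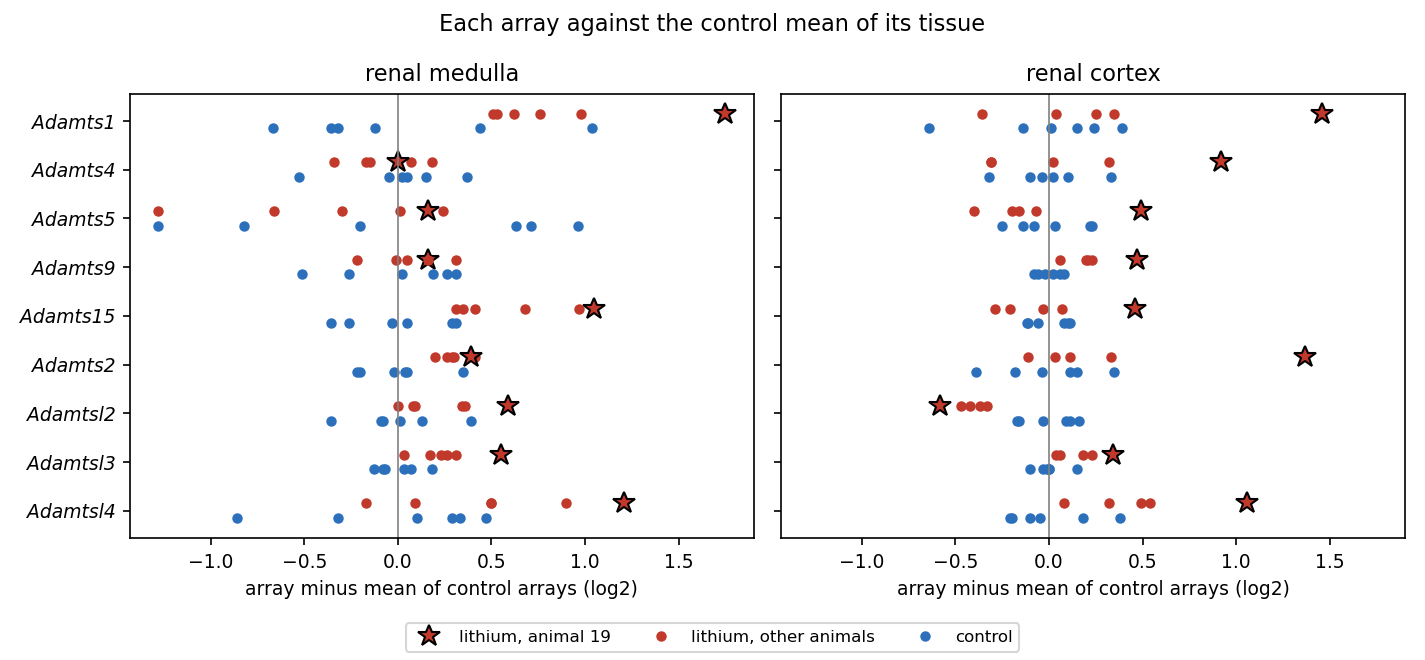
Difference of each array from the mean of the control arrays of its tissue (log2), by gene, with lithium arrays in red, control arrays in blue and the array of lithium-treated rat 19 as a star. In cortex the star is the highest lithium array for 8 of 9 genes and the lowest for Adamtsl2.

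Markers of other cells also differed between the diets in medulla. The mean of 4 smooth muscle markers ran from 6.82 to 7.13 in lithium medulla and from 6.54 to 6.76 in control medulla, a difference of 0.36 (exact permutation p = 0.00216). Tagln (8.66 against 7.85) and Des (7.36 against 6.84) were higher in lithium medulla, while Myh11 (6.07 against 6.06) and Cnn1 (5.84 against 5.75) hardly differed. The mean of 5 macrophage markers ran from 7.09 to 7.49 in lithium medulla and from 5.85 to 7.14 in control medulla, a difference of 0.68 (exact permutation p = 0.00649), with Cd163 under 6 on all 12 arrays. The mean of 5 endothelial markers ran from 8.23 to 8.68 in lithium medulla and from 8.60 to 9.03 in control medulla, a difference of -0.38 (exact permutation p = 0.00433). Of these 5, 1 was higher in lithium medulla, Cdh5 (7.45 against 7.33). The mean of 6 proximal tubule markers ran from 6.90 to 7.88 in lithium medulla and from 7.60 to 8.76 in control medulla, a difference of -0.64 (exact permutation p = 0.0325). The mean of the podocyte markers ran from 6.84 to 6.99 in lithium medulla and from 6.96 to 7.18 in control medulla. The difference was -0.16 (exact permutation p = 0.00433), with Wt1 under 6 on all 12 arrays. Of these markers only Podxl was lower in lithium medulla (8.88 against 9.89). Synpo (6.99 against 6.68), Nphs1 (5.93 against 5.91) and Wt1 (5.74 against 5.70) were higher, so the markers did not move together. Intercalated cell markers were 1.64 higher in lithium medulla, and inner medulla markers differed by -1.14 (exact permutation p = 0.00216 and 0.0433). The mean of 7 fibroblast markers, with Lum under 6 on all 12 arrays, differed by 0.08 (exact permutation p = 0.565). Thick ascending limb and distal tubule markers differed by -1.20 and principal cell markers by -0.36 in medulla (exact permutation p = 0.201 and 0.102). In cortex the principal cell markers differed by -0.90 (exact permutation p = 0.00433). These marker tests exchange arrays across scan groups and are not adjusted over the marker lists and tissues. The part of these cell types in the results above was not tested.

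**Figure D4:**
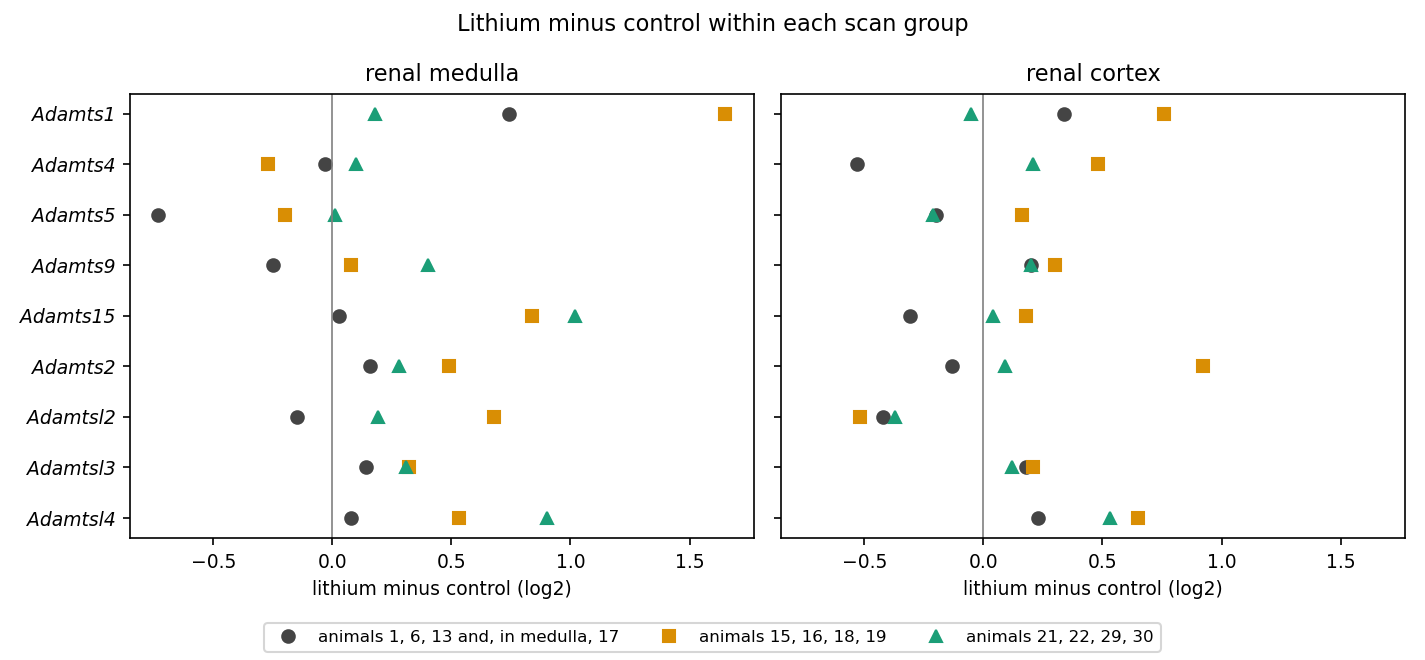
Difference of the mean log2 signal, lithium minus control, within each scan group that holds both diets, by gene and tissue; each symbol is 1 scan group of 3 or 4 arrays. In medulla all 3 symbols are above 0 for Adamts1, Adamts2, Adamts15, Adamtsl3 and Adamtsl4, and in cortex all 3 are below 0 for Adamtsl2 and above 0 for Adamts9, Adamtsl3 and Adamtsl4.

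Over the 18 exact permutation tests of single genes (9 genes in 2 tissues, 2-sided, smallest possible p 0.00216), the medulla gave p = 0.00433 for Adamts15, 0.0108 for Adamts2, 0.0152 for Adamtsl3 and 0.026 for Adamts1. The cortex gave 0.00216 for Adamtsl2, 0.00649 for Adamts9, 0.0195 for Adamtsl4 and 0.0303 for Adamtsl3. These tests exchange arrays across scan groups and are not adjusted over clusters. Exchanged only within scan groups, they gave 0.0185 for Adamts15, 0.0278 for Adamts2, 0.037 for Adamtsl3 and 0.0463 for Adamts1 in medulla. In cortex they gave 0.0185 for Adamtsl2 and Adamts9, 0.0463 for Adamtsl4 and 0.0556 for Adamtsl3. With the threshold of the study's methods, an analysis of variance with diet and scan group at an unadjusted p under 0.05 and a fold over 1.5, Adamts1 and Adamts15 passed in medulla and 0 genes of the family in cortex. That threshold was passed by 3.48% of all clusters in medulla and 1.04% in cortex. The study itself lists Adamts1 and Adamts15 past it in medulla, so this count is a description as well.

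The effect of lithium was also compared between the tissues, as the lithium minus control difference in medulla minus that in cortex. By this test none of the 8 genes differed at an adjusted p of 0.05 in the limma fit, where 0.0915% of all clusters did (15 of 16388). At an unadjusted p under 0.05 there were 2 of 8, Adamtsl2 and Adamts15, against 12.2% of all clusters. Adamts15 and Adamts4 had passed the filter only in medulla, so their values are a description. For Adamtsl2, whose cluster came from the study's list of cortex differences, the value is also a description. Adamtsl2 had the largest value, 0.68 (SE 0.181, interval 0.30 to 1.06, adjusted p 0.183), with a lithium effect of 0.24 in medulla and -0.44 in cortex. Without scan group its adjusted p was 0.0219, and it was the only gene of the 8 called, against 2.18% of all clusters. Its mean was 6.77 in lithium medulla and 6.95 in lithium cortex, against 6.53 in control medulla and 7.38 in control cortex, so that the tissue means lay closer together in lithium-treated rats. Adamts15 had 0.63 (SE 0.234, adjusted p 0.315), although its cortex signals were mostly under the filter. Adamts1 had 0.51 (interval -0.46 to 1.48, adjusted p 0.658), and Adamtsl4 had 0.0039 (interval -0.76 to 0.76). For the remaining 4 genes the value lay between -0.24 and -0.04.

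The control rats gave the level of each gene in both tissues. Array medians were higher in medulla. Over all clusters kept in either tissue, the difference had a median of 0.50. It was 0.14 after centring, in which the median of every array was subtracted from its values. In control medulla 69.4% of these clusters were called higher and 9.65% lower (41.5% and 22.2% after centring). Adamts1, Adamts2, Adamts5, Adamts9, Adamtsl2 and Adamtsl4 had passed the filter in both tissues. Of these 6, Adamts9 was called higher in control medulla, and Adamts1 and Adamtsl2 lower. Adamts4 and Adamts15 had passed it only through the medulla, where their signals were higher, so their differences are given as a description. Adamts1 averaged 6.60 ± 0.63 in control medulla and 7.54 ± 0.37 in control cortex (SD, n = 6 each), a difference of -0.94 (SE 0.283, adjusted p 0.00427). Adamtsl2 averaged 6.53 ± 0.25 in control medulla and 7.38 ± 0.14 in control cortex (SD, n = 6 each), a difference of -0.86 (SE 0.107, adjusted p 1.35e-07). Both went against the general shift between the tissues, and after centring the differences were -1.30 and -1.22.

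Adamts4 averaged 6.19 ± 0.30 in control medulla and 5.31 ± 0.22 in control cortex, a difference of 0.87, with 0 of 6 control cortex arrays at 6 or more. After centring it was 0.51. Adamts9 averaged 6.88 ± 0.32 in control medulla and 6.10 ± 0.07 in control cortex, a difference of 0.78 (SE 0.114, adjusted p 1.32e-06), and it was also called after centring, at 0.42. Adamts15, with 2 of 6 control cortex arrays at 6 or more, had a difference of 0.42 that was 0.06 after centring. Adamtsl4 had 0.48 (adjusted p 0.0511, and 0.0363 with the rat as a block). Adamts2 (0.21) and Adamts5 (0.11) were not called, and their differences changed sign after centring, to -0.15 and -0.25.

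**Figure D5:**
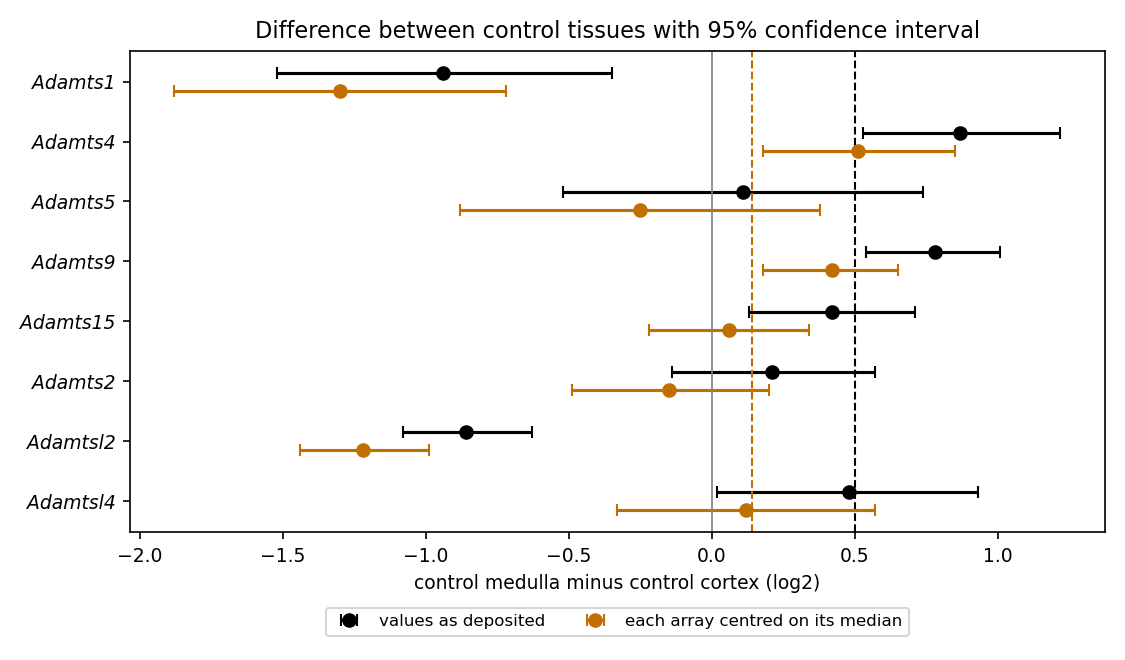
Difference of log2 signal, control medulla minus control cortex, with its 95% confidence interval by gene, from the limma fit without scan group. Values as deposited are black and those after centring orange, and dashed lines mark the medians over all clusters, 0.50 and 0.14. Adamts1 and Adamtsl2 lie to the left of 0 under both, and Adamts4 and Adamts9 to the right; Adamts4 and Adamts15 passed the filter only in medulla.

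The order of the 4 groups differed between genes. Adamts1 averaged 7.46 in lithium medulla, 6.60 in control medulla, 7.89 in lithium cortex and 7.54 in control cortex, so control medulla was lowest and the other 3 groups lay within the SD of their arrays. Adamtsl2 was highest in control cortex, and the step to lithium cortex was larger than the SD of either group. Adamtsl4 averaged 7.63 in lithium medulla, 7.13 in control medulla, 7.15 in lithium cortex and 6.65 in control cortex, so lithium medulla was highest and control cortex lowest. Adamts15 averaged 6.96 in lithium medulla, 6.33 in control medulla and 5.91 in both cortex groups.

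The genes closest to Adamts1 in medulla were sought among 9448 named genes by the correlation of residuals from diet and scan group over the 12 arrays (8 residual degrees of freedom). They were Acox3, a peroxisomal oxidase (r = 0.96), Mfap4, a microfibril-associated protein (0.95), Vav1, a signalling factor of blood cells (0.93), Adipoq, the fat cell hormone adiponectin (0.92), and Fat1, a large cadherin (0.92). Of the family, Adamtsl2 came closest (0.72) and Adamts9 least so (0.07). In cortex the genes closest to Adamtsl4, which had the largest positive difference there, were St3gal2 (0.98), Npr1 (0.98), Pmepa1 (0.96), Arrb1 (0.96) and Dgkz (0.96) among 8297 genes, with 7 residual degrees of freedom. Adamts5 followed Adamtsl4 there at 0.92 and Adamtsl2 ran against it at -0.53. The array of rat 19 was the highest lithium cortex array for Adamtsl4 and Adamts5 and the lowest for Adamtsl2. The part of that array in these cortex correlations was not tested. Both genes of a pair were measured on the same arrays, and these correlations are descriptions without a test.

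Other genes of the same pathways were counted from lists that were also chosen with earlier results of these data known. In both tissues 0 genes of any of these lists passed an adjusted p of 0.05 in the limma fit with scan group. Of 16 other ADAMTS family symbols, 6 had a cluster, and 2 were tested in medulla and 1 in cortex. Adamtsl5 had a log2 fold change of 0.36 in medulla (adjusted p 0.131) and 0.27 in cortex (adjusted p 0.662), and Adamts12 had 0.35 in medulla (adjusted p 0.257). At an unadjusted p under 0.05, 1 of these 2 was higher in medulla. The shares of all clusters at that p, against which this count and those of the following lists stand, were 9.09% higher and 10.5% lower in medulla and 4.91% higher and 2.63% lower in cortex.

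Of the proteoglycan and matrix substrates, 6 were tested in medulla and 4 in cortex. At an unadjusted p under 0.05 there were 0 higher and 1 lower in medulla, and 1 higher and 0 lower in cortex. Vcan, which encodes versican, had a log2 fold change of -1.69 in medulla (SE 0.499, adjusted p 0.113) and was called in the fit without scan group. Fn1, which encodes fibronectin, gave -0.19 in medulla and 0.82 in cortex (adjusted p 0.651 and 0.631). The list's median was -0.23 in medulla and 0.51 in cortex. Of the 6 procollagens tested in each tissue, Col1a1 had 0.57 in medulla (adjusted p 0.143), the only one at an unadjusted p under 0.05, and none reached that in cortex. Their median was 0.09 in medulla and 0.16 in cortex.

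Of the microfibril partners, 15 were tested in each tissue, and at an unadjusted p under 0.05 there were 4 higher and 0 lower in medulla and 2 higher and 0 lower in cortex. Ltbp4, a latent TGF-beta binding protein, gave 0.71 (adjusted p 0.0939), Efemp1, a fibulin, gave 0.58 (adjusted p 0.0963) and Eln, which encodes elastin, gave 0.74 (adjusted p 0.157) in medulla. In cortex Tgfb2, a TGF-beta ligand, gave 0.54 (adjusted p 0.0786). Without scan group Ltbp4, Efemp1 and Tgfb2 were called. The list's median was 0.17 in medulla and 0.12 in cortex.

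Of the genes that inhibit, activate or clear ADAMTS proteases, 13 were tested in medulla and 11 in cortex. At an unadjusted p under 0.05 there were 1 higher and 3 lower in medulla, and 1 higher and 0 lower in cortex. Timp3, the tissue inhibitor that blocks several ADAMTS proteases, gave -0.70 in medulla (SE 0.182, adjusted p 0.0818) and 0.01 in cortex (adjusted p 0.99), and was called in medulla without scan group. The proprotein convertases Pcsk6 and Furin, which remove the propeptides of many secreted proteases, gave -1.30 and -0.66 in medulla (adjusted p 0.146 and 0.159). Timp1 gave 0.72 in cortex with a wide error (SE 0.503, adjusted p 0.793). The list's median was -0.09 in medulla and 0.01 in cortex.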

How the data were processed

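The authors deposited log2 signal intensities of 24 arrays. They had corrected the background by RMA, normalised by quantiles, applied median polish in Partek, taken out scan date with an analysis of variance and averaged exon probe sets into clusters. RMA, Partek and the build rn4 are named in the submitters' processing notes. The sources used here do not give the dates, and the scan groups were recovered from the values. Removing an effect before testing lowers the spread between arrays. Scan group was therefore kept in the fits of lithium against control and in the interaction. The comparison of the control tissues had no scan group, because scan groups are nested in tissue. Of the clusters, 15097 carried 1 symbol, 323 several and 13474 none.

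The diets were compared per tissue with limma 3.58.1 in R 4.3.3 (lmFit and eBayes) with diet and scan group, with Benjamini-Hochberg adjustment over all clusters kept. The interaction used all 24 arrays. Scan groups and fits were tested on simulated data. Exact tests went through every split or exchange of the arrays. The confidence intervals used scipy 1.17.1, and the figures matplotlib 3.10.9. The genes of the family and the other lists were chosen with earlier results of these data known. The genes named are all of the family, up to 4 genes of each other list with the largest changes, and the 5 most correlated genes. Arrays of the 2 tissues with the same number in their labels were taken as the 2 arrays of a rat, since the labels name no animal. The deviations of these 2 arrays from their group means correlated between -0.0568 and 0.417 in 11 rats, over 0.1 in 6 of them. In 8 of the 11 this was the highest correlation of the cortex array with any medulla array of its diet. The rat was a block in an alternative fit. The number of arrays limits the precision.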

Additional observations from a re-analysis of the deposited data

How the results depend on the processing

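Of 442 gene values under the alternatives, 413 kept their direction and their side of the threshold, 8 passed it anew, 1 lost it and 20 changed sign. Without scan group, 1052 clusters were called in medulla, 288 in cortex and 357 in the interaction, with 1 gene of the family in each (Adamts15, Adamtsl2 and Adamtsl2). An ordinary test without scan group called 650 in medulla and 296 in cortex after Benjamini-Hochberg, with 0 and 1 genes of the family, and an ordinary analysis of variance with scan group called 37 and 14. Centring each array on its median left 9 clusters in the interaction, where Adamtsl4 gave -0.04, and turned the tissue differences of Adamts2 and Adamts5 to -0.15 and -0.25. The replicate block by rat gave 20 interaction calls, against 15 without it, and 0 genes of the family, and 13167 tissue calls, against 12961. Apart from Adamtsl4 between control tissues it changed no call of the family.

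Leaving out each rat in turn gave between 50 (without lithium-treated rat 21) and 1053 (without lithium-treated rat 6) calls in medulla, 34 to 92 in cortex, 5 to 57 in the interaction and 12541 to 12717 between control tissues. Calls in the family ran from 0 to 1 in medulla, stayed at 0 in cortex and in the interaction and ran from 5 to 6 between control tissues. The counts between control tissues include Adamts4 and Adamts15, which passed the filter only through medulla, where they were higher. With all rats, 79.1% of all clusters were called between control tissues. The log2 fold change ran from -0.20 to 0.02 for Adamts4 and -0.05 to 0.15 for Adamts9 in medulla, and from -0.23 to 0.03 for Adamts5 in cortex. In the interaction it ran from -0.19 to 0.24 for Adamts2, -0.39 to 0.01 for Adamts4, -0.62 to 0.03 for Adamts5 and -0.26 to 0.18 for Adamtsl4. Between control tissues it ran from -0.10 to 0.41 for Adamts5. Each gene had 1 cluster, so a second cluster could not be tried. The cause of these changes was not tested. Signals near 6 lie close to the array medians, which limits what Adamts4, Adamts15 and Adamtsl3 can show in cortex. The limit also holds in medulla, where array medians were 6.12 to 6.22. Control medulla averaged 6.19 for Adamts4, 6.24 for Adamts2 and 6.33 for Adamts15. With a filter at 7 on 4 of 12 arrays, 3 genes were tested in medulla (Adamts1, Adamts9 and Adamtsl4), so Adamts15 and Adamts2 dropped out.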
